A study of Saccharomyces cerevisiae with 8 samples.

Results

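The 10 genes described here serve the uptake and handling of copper, or their regulation, in the budding yeast *Saccharomyces cerevisiae*: *CTR1*, *CTR2*, *CTR3*, *FRE1*, *FRE7*, *CCC2*, *ATX1*, *CCS1*, *CRS5* and *MAC1*. They were chosen by name, and each had 1 probe set annotated to it alone, out of 5656 genes with such a probe set. Transcript levels were measured on 8 one-colour Affymetrix yeast arrays of strain 4073, whose genotype the labels do not give. Controls 1 to 4 (n = 4) grew in YPD medium without drug, and gentamicin samples 5 to 8 (n = 4) came from cells already adapted to gentamicin that were kept in it overnight and up to mid-log phase, when all cells were collected. The sample labels state a dose of 500 µg/ml, but the design text has milligrams in place of micrograms, so the unit is not settled. Gentamicin is an aminoglycoside antibiotic that binds ribosomal RNA. The labels do not say whether the 4 samples of a group came from separate cultures, so p-values measure the spread between these samples only.

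Yeast reduces copper at the cell surface with Fre metalloreductases and takes it in through the transporters Ctr1 and Ctr3, while Ctr2 releases copper from the vacuole. Inside the cell, the chaperone Atx1 hands copper to the pump Ccc2, which loads it into the Golgi for the iron oxidase Fet3, and the chaperone Ccs1 hands it to the superoxide dismutase Sod1. Mac1 activates *CTR1*, *CTR3*, *FRE1* and *FRE7* when copper is scarce, and Ace1, encoded by *CUP2*, activates metallothionein genes and *SOD1* when copper is abundant. *CCC2*, *ATX1* and *FRE1* are also targets of Aft1, the activator of iron uptake genes.

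Values are MAS5 signals in arbitrary units, and differences are gentamicin minus control on the log2 scale. A gene was called when its p-value from limma, adjusted over 4524 tested genes by the method of Benjamini and Hochberg, was under 0.05. The lowest 20% of genes by signal were not tested. Each array holds RNA of a whole culture, so fewer cells with a transcript and less of it per cell cannot be told apart. Of the tested genes, 2116 were called, so 46.8% is the background share for any list here, and the median difference over tested genes was -0.12. The median signal was 389 ± 7.16 (SD, n = 4) on control arrays and 330 ± 7.06 on gentamicin arrays (exact permutation p = 0.0286, the smallest that 4 against 4 arrays allow, adjusted over 3 array measures 0.0429). The spread of log2 signals among tested genes, as the interquartile range of an array, was 1.91 ± 0.030 on control arrays and 2.16 ± 0.032 on gentamicin arrays, also without overlap (exact permutation p = 0.0286, adjusted 0.0429). For *ACT1*, used as a check of RNA quality, the signal of the 3′ probe set over that of the 5′ one was 1.38 ± 0.107 and 1.43 ± 0.0881 (exact permutation p = 0.486, adjusted 0.486). Signals of 16 control probe sets for transcripts not in the samples reached 89.5. Single low values were most frequent on control 1, which lay far below the other 3 controls for 216 tested genes, and on gentamicin 5, with 159 such genes, against 26 to 77 on each other array (Dixon's rule). All 4 alpha-cell markers were called lower with gentamicin, against 31.3% of all tested genes. Their falls ran from 1.58-fold for *MF(ALPHA)1* to 7.25-fold for *MF(ALPHA)2*. Of the 6 a-cell markers, 5 were below the filter. The other, *MFA1*, went from 727 ± 89.7 to 164 ± 56.0, so it passed the filter, at a signal of 214, only through the controls. These values are of the brighter of its 2 probe sets, and with the median or the lower of them *MFA1* was below the filter.

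With gentamicin, the metallothionein gene *CRS5* rose and the regulator gene *MAC1* fell, while the transport and chaperone genes that could be tested were not called. Of the 10 genes, 6 passed the signal filter, with 1 called higher, 1 called lower and 4 not called. Among all tested genes, 15.5% were called higher and 31.3% lower. This balance depends on the scaling, with 18.8% higher and 19.8% lower after quantile normalization and 30.3% higher and 12.1% lower when the median log2 signals of the arrays were aligned. The median log2 difference over the 6 genes was -0.21, against -0.12 over all tested genes. The groups did not overlap for 2 of the 6, against 44.8% of all tested genes, so called and separated genes are no more frequent in this small list than among all tested genes. The 4 genes below the filter, *CTR1*, *CTR3*, *FRE1* and *FRE7*, are the 4 targets of Mac1 among the 10. For *FRE1* this rests on a single low value, on gentamicin 8, and the gene passed the filter when that array was left out.

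**Figure D1:**
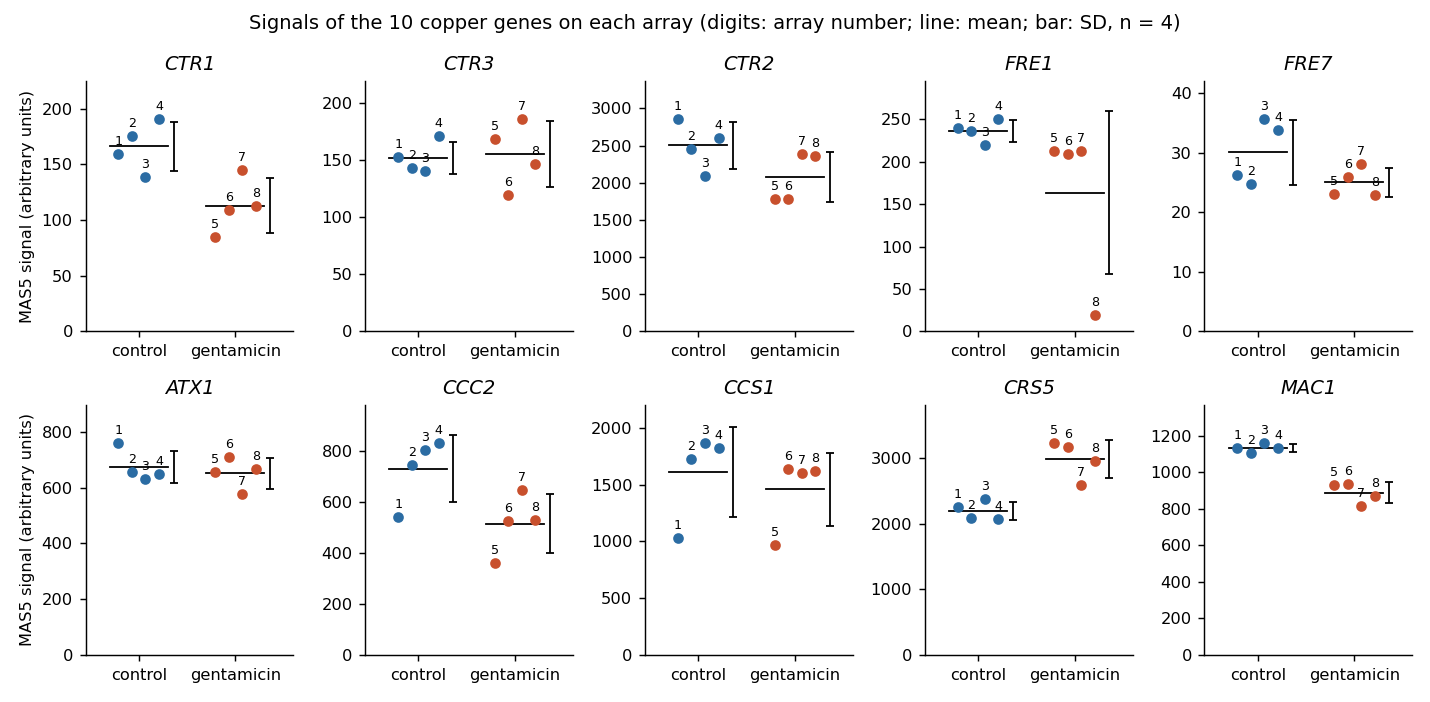
MAS5 signal (vertical axis, arbitrary units, from 0) of each of the 10 copper genes on 4 control arrays (blue) and 4 gentamicin arrays (red), with the array number beside each point, a line at the group mean and a bar of 1 SD. The groups separate for *CRS5* and *MAC1*, and for *FRE1* with gentamicin 8 far below the others at 18.9.

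*CRS5* encodes a metallothionein, a small protein that binds copper through its cysteines. Its signal was 2249, 2094, 2371 and 2073 in controls 1 to 4 and 3234, 3170, 2591 and 2956 in gentamicin samples 5 to 8. All 4 gentamicin values lay above all 4 control values. The mean went from 2197 ± 140.4 (SD, n = 4) to 2987 ± 290, a 1.36-fold rise (log2 difference 0.44, 95% confidence interval 0.25 to 0.63, limma adjusted p = 0.00262). Of all tested genes, 90.3% had a lower log2 difference than *CRS5*.

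*SOD1*, which like *CRS5* is a target of Ace1, encodes the copper- and zinc-containing superoxide dismutase. Its signal was 3129, 7969, 8251 and 8294 in controls 1 to 4 and 8926, 9033, 10669 and 9369 with gentamicin. Every gentamicin value lay above every control value, but control 1 was far below the other controls, and *SOD1* was not called (log2 difference 0.56, limma adjusted p = 0.139). Without control 1 the log2 difference was 0.21 and the gene was called (limma adjusted p = 0.0399). *CUP2*, the gene of Ace1 itself, went from 1556 ± 91.3 in controls to 1721 ± 62.9 and was not called (log2 difference 0.15, limma adjusted p = 0.0956). The *CUP1-1* and *CUP1-2* metallothionein genes share a probe set that lists both, so no value is given for either.

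*MAC1* encodes the copper-sensing activator of high-affinity copper uptake. Its signal was 1131, 1104, 1160 and 1130 in controls and 927, 937, 814 and 870.1 with gentamicin. The groups did not overlap, and the 4 controls lay within a narrow range. The mean fell 1.28-fold, from 1131 ± 22.7 to 887 ± 57.2 (log2 difference -0.35, 95% confidence interval -0.51 to -0.20, limma adjusted p = 0.00271). Of all tested genes, 26.2% had a lower log2 difference than *MAC1*. The call depended on scaling: with array medians aligned the log2 difference was -0.11 (limma adjusted p = 0.259).

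The targets of Mac1 gave dim signals in both groups. *CTR1*, the main high-affinity copper transporter of the plasma membrane, had signals of 159, 175, 139 and 190.4 in controls and 84.4, 109, 144 and 113 with gentamicin. Gentamicin 7 lay above control 3, and the other 3 gentamicin values lay below every control, with gentamicin 5 inside the range of the controls for absent transcripts. The means were 166 ± 22.0 and 113 ± 24.6, a log2 difference of -0.57. In a fit of all 5656 genes without the filter, where 42.8% of genes were called, *CTR1* was called lower (95% confidence interval -0.96 to -0.19, limma adjusted p = 0.0237). That call was lost after quantile normalization (log2 difference -0.38, limma adjusted p = 0.123), with aligned medians (-0.34, 0.142), without control 2 (0.0624), without control 4 (0.0653) and without control 1 and gentamicin 5 together (0.0628).

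*CTR3* encodes the other high-affinity transporter, which a Ty element silences in many laboratory strains. Its signal was 153, 143, 141 and 172 in controls and 169, 119.8, 186 and 147 with gentamicin. The gentamicin values spread on both sides of the controls, with a log2 difference of 0.02. Without the filter its 95% confidence interval was -0.32 to 0.35 (limma adjusted p = 0.945).

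*FRE1* encodes the main surface reductase for copper and iron. Its signal was 239.9, 236, 219.7 and 250.4 in controls and 213, 209, 213 and 18.9 with gentamicin. All gentamicin values lay below all controls, but gentamicin 8 was far below the other 3 and inside the range of the controls for absent transcripts. The log2 difference of -1.03 rested on that array, whose value is not above background, so its size is not resolved. It was -0.16 without gentamicin 8 (limma adjusted p = 0.221 in the fit without the filter). With gentamicin 8 left out, *FRE1* also passed the filter and was not called (limma adjusted p = 0.213). With all arrays it was not called in the fit without the filter (limma adjusted p = 0.269). *FRE7*, a further reductase gene, had signals of 24.7 to 35.6 in controls and 23.0 to 28.0 with gentamicin, all within the range of the controls for absent transcripts, so its level is not resolved and no difference is given.

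*IRC7* and *REE1*, known Mac1 targets outside the 10 genes, passed the filter and were not called. *IRC7*, a cysteine desulfhydrase gene, went from 297 ± 42.6 to 240.3 ± 14.3 with no overlap of the groups (log2 difference -0.30, limma adjusted p = 0.0558). It was called lower without control 3 (-0.36, 0.0343) and with no variance trend (-0.30, 0.0427). The difference nearly vanished after quantile normalization (-0.057, limma adjusted p = 0.737) and with aligned medians (-0.059, 0.722). *REE1* had a signal of 540.3 ± 45.5 and 502 ± 44.4 (log2 difference -0.11, limma adjusted p = 0.376). Of the 6 Mac1 targets listed, 2 were thus tested and 0 were called by limma (1, *IRC7*, at an unadjusted p under 0.05), and in the fit without the filter 1 of 6, *CTR1*, was called lower.

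*CTR2*, the vacuolar copper transporter, is not under Mac1 and had a bright signal. Its values were 2855, 2457, 2090.2 and 2605 in controls and 1778, 1780.0, 2380 and 2365 with gentamicin. Gentamicin 5 and 6 lay below all controls, and gentamicin 7 and 8 lay inside the control range. *CTR2* was not called (log2 difference -0.28, 95% confidence interval -0.58 to 0.03, limma adjusted p = 0.119).

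**Figure D2:**
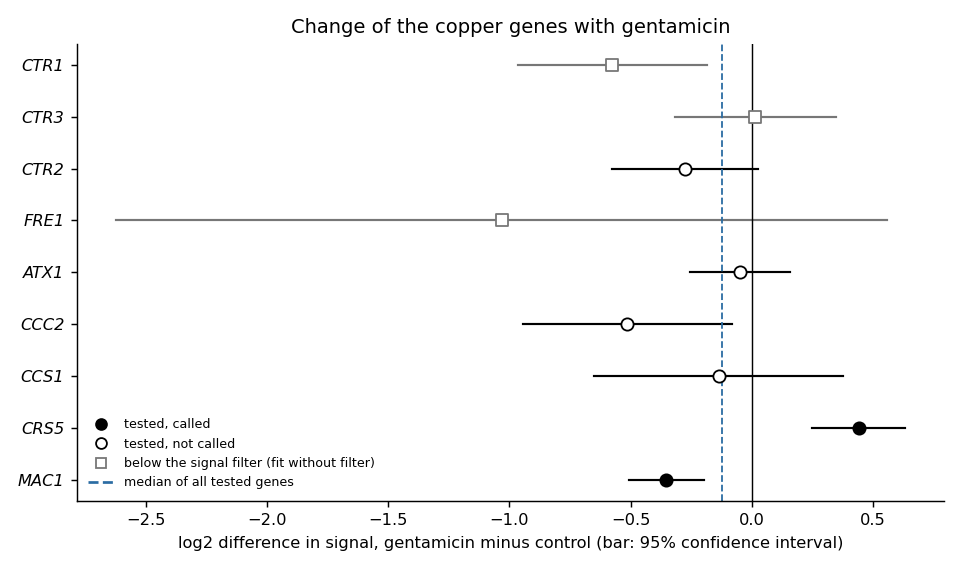
Log2 difference in signal, gentamicin minus control (horizontal axis), of 9 copper genes with its 95% confidence interval. *FRE7*, within the range of the controls for absent transcripts on all arrays, is left out, and the value of *FRE1* includes gentamicin 8. Filled circles are called genes, open circles tested genes that were not called, and grey squares genes below the signal filter, taken from the fit without it. The dashed line marks the median of all tested genes at -0.12, and the interval lies above 0 for *CRS5* alone.

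The 2 routes of copper inside the cell gave uneven values between arrays. *CCC2*, the copper pump of the Golgi, had signals of 539.9, 744, 802 and 830.1 in controls and 362, 524, 645 and 526 with gentamicin. The lowest value of each group came from control 1 and gentamicin 5, and control 1 fell inside the gentamicin range. The mean went from 729 ± 131 to 514 ± 116, and the gene was not called (log2 difference -0.51, 95% confidence interval -0.94 to -0.08, limma adjusted p = 0.0517). It was called without control 1 (log2 difference -0.65, limma adjusted p = 0.0171), without gentamicin 7 (-0.63, 0.0275) and without control 1 and gentamicin 5 together (-0.49, 0.00642). Leaving out any other single array gave no call. The difference shrank after quantile normalization (-0.32, limma adjusted p = 0.188) and with aligned medians (-0.28, 0.247).

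*ATX1*, whose protein delivers copper to Ccc2, differed by less than its spread. Its signal was 760.0, 654, 632 and 649 in controls and 655, 709, 576 and 665 with gentamicin, with full overlap of the groups. The log2 difference was -0.05 with a 95% confidence interval of -0.26 to 0.16 (limma adjusted p = 0.685). The direction of so small a difference turned with scaling, to 0.14 after quantile normalization and 0.19 with aligned medians.

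*CCS1*, the chaperone of Sod1, was lowest on the same 2 arrays as *CCC2*. Its signal was 1029, 1724, 1869 and 1826 in controls and 972, 1638, 1605 and 1619.7 with gentamicin. Control 1 and gentamicin 5 lay far below the other 3 arrays of their groups, while the remaining gentamicin values lay below the remaining controls. *CCS1* was not called with all arrays (log2 difference -0.14, 95% confidence interval -0.65 to 0.38, limma adjusted p = 0.648). With the single low value of each group left out the log2 difference was -0.16 (limma adjusted p = 0.12), and with aligned medians it was 0.10. For 45 tested genes both control 1 and gentamicin 5 were such low values, and the part of these arrays in the values of *CCS1*, *CCC2* and *SOD1* was not tested.

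**Figure D3:**
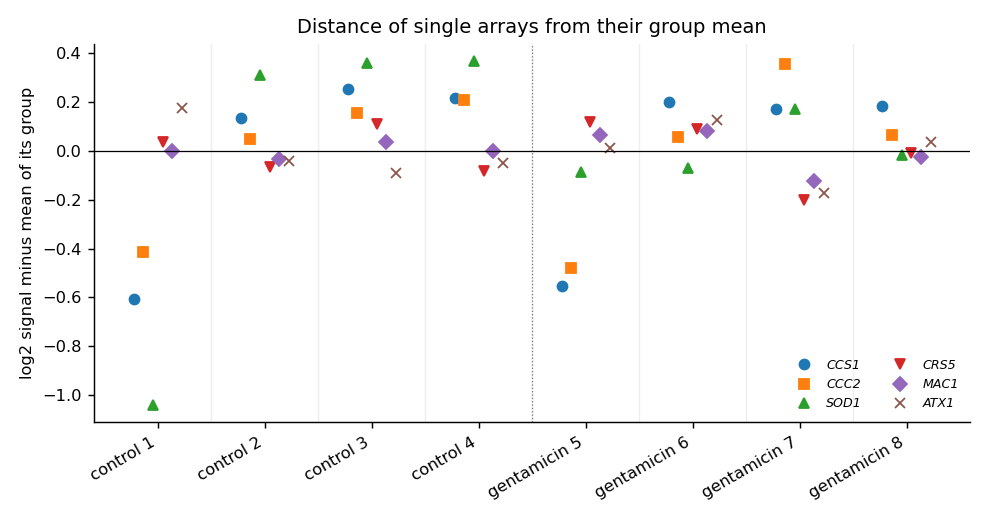
Distance of log2 signal from the mean of its own group (vertical axis) on each of the 8 arrays for *CCS1*, *CCC2*, *SOD1*, *CRS5*, *MAC1* and *ATX1*. *CCS1* and *CCC2* are lowest on control 1 and gentamicin 5 and *SOD1* on control 1, while the largest distance among *CRS5*, *MAC1* and *ATX1* is -0.20, for *CRS5* on gentamicin 7.

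A ratio of 2 genes on the same array does not move with a factor that is common to the whole array, and 3 pairs of genes are described this way. The pairs were chosen after the values were seen, so no test is given. The log2 ratio of *CCS1* to its client *SOD1* was -2.03 ± 0.29 (SD, n = 4) in controls and -2.73 ± 0.33 with gentamicin, a difference of -0.70, with all 4 gentamicin arrays below all controls. That difference was -0.52 after quantile normalization, which does move ratios, and -0.40 without control 1 and gentamicin 5. The log2 ratio of *CTR1* to *CTR3* was 0.12 ± 0.13 in controls and -0.47 ± 0.37 with gentamicin, again with no overlap, although *CTR1* on gentamicin 5 was inside the range of the controls for absent transcripts. The log2 ratio of *CCC2* to *ATX1* was 0.097 ± 0.40 and -0.37 ± 0.42.

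Of 3 enzymes that use the copper, both multicopper oxidases fell and *SOD1* was not called. *FET3*, the multicopper oxidase of iron uptake that receives copper from Ccc2, fell 1.31-fold, from 9087 ± 896 to 6921 ± 434 (limma adjusted p = 0.00331). *FET5*, a related oxidase of the vacuole membrane, fell 1.29-fold, from 1584 ± 122 to 1227 ± 55.6 (limma adjusted p = 0.00331). Both calls were lost with aligned medians (log2 differences -0.15 and -0.13, limma adjusted p = 0.216 and 0.242). Of the 3 enzymes, limma thus called 2 lower and 0 higher (also 0 higher at an unadjusted p under 0.05). The shares over all tested genes were 31.3% lower and 15.5% higher, and 3 genes are too few to show an excess.

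Genes that deliver copper to cytochrome oxidase in mitochondria were called higher for 3 and lower for 1 of 9 tested, with a median log2 difference of 0.11. Among all tested genes, 15.5% were called higher and 31.3% lower, 46.8% in either direction, so called genes are no more frequent in this list. *PIC2*, a mitochondrial carrier of phosphate and copper, had signals of 3346, 2800.2, 3760.3 and 3742 in controls and 6091, 5726, 5523 and 6027 with gentamicin. All gentamicin values lay far above the controls, a 1.72-fold rise (limma adjusted p = 0.000222). *SCO2*, a copper-binding protein of the inner membrane, rose 1.62-fold, from 818 ± 196 to 1307 ± 143 (limma adjusted p = 0.00753). *COA6*, an assembly factor, rose 1.13-fold (limma adjusted p = 0.0392), a call lost under 10 of 21 alternatives. *COX23*, a small protein of the space between the mitochondrial membranes, fell 1.19-fold (limma adjusted p = 0.0133), a call lost after quantile normalization (0.813) and with aligned medians (0.904). The counts of the list were 2 higher and 0 lower after quantile normalization and 5 and 0 with aligned medians, where the shares of all tested genes called higher were 18.8% and 30.3%.

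Of 5 tested genes of other copper transport and tolerance, limma called 1 higher and 0 lower (0 lower also at an unadjusted p under 0.05). That gene was *SMF1*, a transporter of divalent metals, which rose 1.29-fold, from 211 ± 16.4 to 272 ± 25.6 (limma adjusted p = 0.0151). Its mean in controls was under the signal of 214 at the filter, so it was tested only through the gentamicin arrays, and the count of 1 is no support for a change of this list. Of 3 tested further *FRE* reductases, 0 were called by limma, and 0 had an unadjusted p under 0.05. Other settings called 1 gene of this list: *FRE8* higher after quantile normalization and with aligned medians, *FRE6* lower with array weights and without gentamicin 6, and *FRE3* lower in the fit without the filter, with the other probe set rules and without gentamicin 7. *FRE3* went from 247 ± 22.2 to 173 ± 37.2 with no overlap of the groups and lay below the filter. These 3 genes were named after their values were seen. *HAA1*, a relative of *CUP2* in sequence that acts in the response to weak acids, was not called (558 ± 143 and 492 ± 43.2, limma adjusted p = 0.584), and was called lower without control 1 (log2 difference -0.36, limma adjusted p = 0.0128).

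The Aft1 iron regulon, which holds *CCC2*, *ATX1* and *FRE1*, had 7 genes called lower and 1 higher of 17 tested, with a median log2 difference of -0.26. Among all tested genes, 31.3% were called lower and 15.5% higher. The 7 include *FET3*, already described among the copper-using enzymes, and *AFT1*, the gene of the regulator itself. *AFT1* had a log2 difference of -0.26 (limma adjusted p = 0.0287). That call was lost after quantile normalization, with aligned medians and without control 1 and gentamicin 5 together. It was also lost on leaving out control 1, 3 or 4, or gentamicin 6 or 8. *AFT2*, also in this list, was not called (log2 difference -0.0003, limma adjusted p = 0.998). *FTR1*, the iron permease that works with Fet3, fell 1.84-fold, from 1026 ± 70.9 to 558 ± 72.8 (limma adjusted p = 0.000146). *HMX1*, a heme oxygenase, fell 1.71-fold (limma adjusted p = 0.000163), and *FIT2*, a cell wall mannoprotein of siderophore uptake, fell 1.45-fold (limma adjusted p = 0.00358), a call lost with aligned medians (0.0685). The gene called higher was *ARN2*, a siderophore transporter, at 1.19-fold (limma adjusted p = 0.0263), named because it is the only one. The counts were 4 lower and 1 higher after quantile normalization and 2 lower and 4 higher with aligned medians, so the balance of this list, like that of all genes, depends on the scaling.

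**Figure D4:**
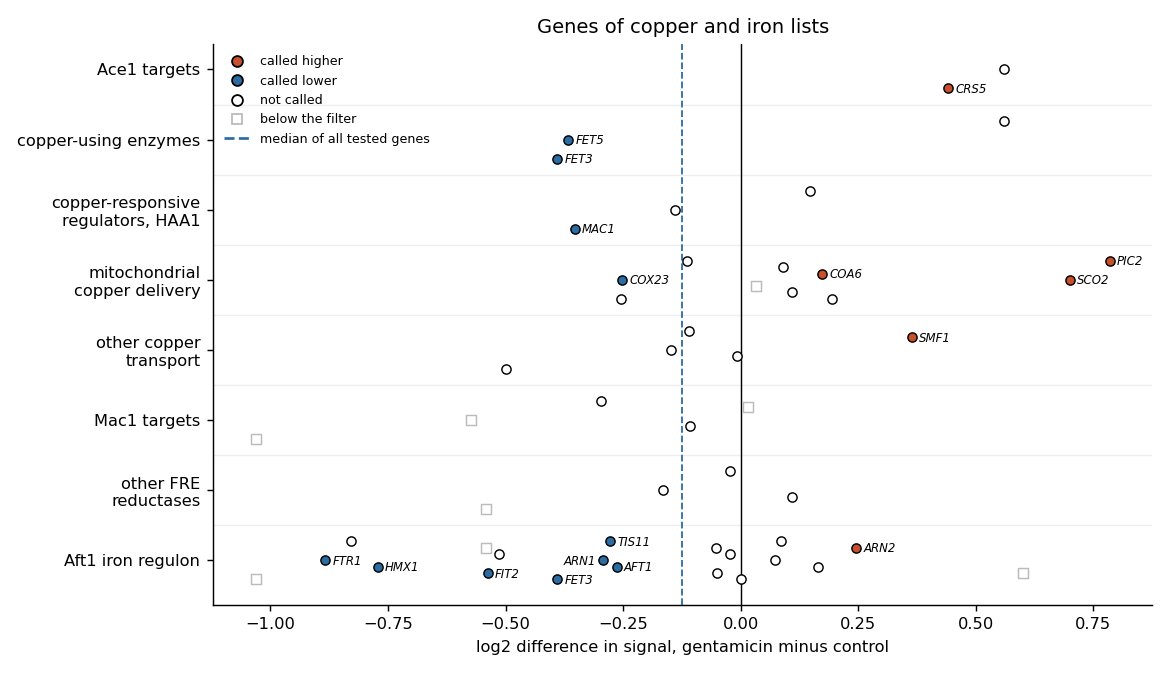
Log2 difference in signal, gentamicin minus control (horizontal axis), of single genes in 8 lists, with filled points for called genes (red higher, blue lower), open circles for genes not called and grey squares for genes below the filter. Genes within the range of the controls for absent transcripts on all arrays are left out. *PIC2* and *SCO2* lie furthest to the right among called genes, and *FTR1* and *HMX1* furthest to the left.

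Among the tested members, *CRS5* had the most positive and *CCC2* the most negative log2 difference, and the tested genes whose log2 signals followed them most closely over the 8 arrays were listed. For *CRS5* these were *BNA5*, of NAD synthesis, *ICT1*, an acyltransferase of lipid metabolism, and *CAP2*, an actin capping subunit, with Pearson correlations of 0.99, 0.99 and 0.98. For *CCC2* they were *URA4*, of pyrimidine synthesis, *MRPL8*, a mitochondrial ribosomal protein, and *ITR1*, the inositol transporter, each at 0.98 to 0.99. These values include the difference between the groups and are a description over 8 arrays.

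**Figure D5:**
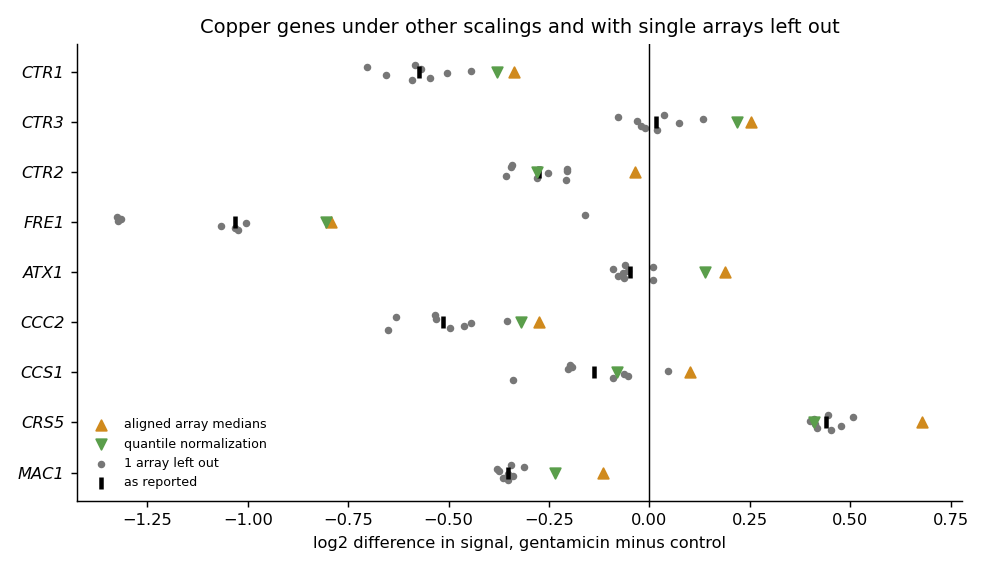
Log2 difference, gentamicin minus control (horizontal axis), of 9 copper genes (*FRE7* is left out) as reported (black bar), after quantile normalization, with aligned array medians and with each array left out in turn (grey points). Genes below the filter are shown from the fit without it. *CRS5* stays above 0 and *MAC1* below 0 in every setting shown, and *FRE1* moves to -0.16 without gentamicin 8.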

How the data were processed

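Per the submitters' processing notes, the deposited values are MAS5 signals, linear intensities with 1 value for each probe set on each array. The version, settings and detection calls are not given in the sources used here. Trimmed by 2% at either end, the means of the 8 arrays all came to about 1001. The signals were thus already scaled between arrays, which ties a gene's apparent change to the spread of the other signals. The number of arrays limits the precision.

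Of 9335 probe sets, 6504 listed 1 gene, and their symbols were taken from the R64 gene table by gene identifier (all 6504 matched). The 328 probe sets with several genes and 2503 with none, array controls included, named no gene. No coordinates or sequences are given. Where a gene had several probe sets, the brightest stood for it. Signals were converted to log2 without offset, the lowest 20% of genes by mean were left out, and gentamicin minus control was fitted with limma 3.58.1 in R 4.3.3 (lmFit, eBayes with a variance trend) and adjusted over 4524 genes. The fit was also run on simulated data with independent noise for each gene. Low values that many genes share on 1 array were not simulated, so that run does not bear on their effect here. Array measures had exact two-sided permutation tests.

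The members and all gene lists were chosen with earlier results of these data known. Named genes are the 10 members, up to 4 called genes of each list by smallest adjusted p, any gene of lists of 6 or fewer, and the 3 genes most correlated with *CRS5* and with *CCC2*. *AFT1*, *AFT2* and *ARN2* are named outside this rule. The rule covers *FRE3*, *FRE6* and *FRE8*, but they were picked after their values were seen. Alternatives were quantile normalization, aligned medians, an offset, other filters, no variance trend, array weights, other probe set rules, flagged values left out, each array left out and an adjusted p under 0.01. Added after the values were seen were leaving out control 1 and gentamicin 5 together, leaving out flagged values of the named list genes, all alternatives for genes other than the 10 members, the gene pairs, and the other settings combined with no filter.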

Additional observations from a re-analysis of the deposited data

Results flagged for a closer look

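Dixon's 95% rule, which by chance flags about 1 in 20 independent groups, was applied on the log2 scale to 52 groups of 4 values. These were 10 copper genes and 16 named list genes, each in controls and with gentamicin. In 9 groups a value was set apart from the other 3. For *FRE1* it was gentamicin 8 at 18.9, against 209 to 213 on the other gentamicin arrays. For *CCS1* it was control 1 at 1029, against 1724 to 1869, and gentamicin 5 at 972, against 1605 to 1638. For *SOD1* it was control 1 at 3129, against 7969 to 8294, and for *HAA1* control 1 at 344, against 613 to 647. High values were set apart for *FET3* on control 1 (10431) and gentamicin 5 (7572), for *FTR1* on gentamicin 5 (667) and for *SMF1* on gentamicin 6 (310). Of the 9 flags, 4 fell on control 1 and 3 on gentamicin 5. The groups share arrays, so they are not independent. Among all tested genes, control 1 was set apart as low for 4.77% and gentamicin 5 for 3.51%. High values were not counted over all tested genes, so 9 of 52 is not read as an excess.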

How the results depend on the processing

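The number of copper genes called was 2 as reported, 1 with aligned array medians, where *MAC1* was lost, and 2 to 3 with 1 array left out. *CRS5* was called higher under all 21 alternatives run for it, and *MAC1* lower under 20 of 21. Not all of these could move the result. Each gene has 1 probe set and no flagged value, so the other probe set rules and leaving out flagged values kept its log2 difference unchanged. The filters, the variance trend and the stricter threshold also leave that difference as it is. Over all genes, 2116 were called (702 higher, 1414 lower), 1744 after quantile normalization (850, 894), 1915 with aligned medians (1369, 546), 2532 with array weights (840, 1692), 1405 at an adjusted p under 0.01, and 1817 to 2051 with 1 array left out. The median log2 difference over tested genes moved from -0.12 to -0.02 after quantile normalization and 0.11 with aligned medians. Directions turned for genes that were not called: *ATX1* to 0.14 (quantile), 0.19 (aligned medians), 0.0056 without control 1 and gentamicin 5, and on leaving out single arrays it ran from -0.092 to 0.0096; *CCS1* to 0.10 (aligned medians) and, on leaving out single arrays, from -0.34 to 0.047; *HAA1* to 0.073 (quantile) and 0.10 (aligned medians); *REE1* to 0.10 (quantile) and 0.13 (aligned medians). *CTR3*, from the fit without the filter, turned to -0.012 without control 2, -0.021 without control 3, -0.032 without gentamicin 5, -0.078 without gentamicin 7 and -0.028 without control 1 and gentamicin 5. *CUP2* was called higher with aligned medians (0.38, limma adjusted p = 0.00295), with array weights (0.18, 0.0182) and without control 1 (0.19, 0.038). *CCC2* was also called with array weights (-0.52, 0.00886) and *SOD1* with aligned medians (0.80, 0.0391). *ARN2* lost its call under 6 of 21 alternatives (limma adjusted p up to 0.0744). No paired analysis was possible because the groups share no replicate numbers. Dim signals limit *CTR1*, *CTR3*, *FRE1* and *FRE7*.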
